A study of Mus musculus with 10 samples.

Results

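Spermatogenesis runs on a relay of transcription regulators, and 10 of them are described here in the order in which they act. They were chosen by gene symbol and all of them were present in both tables, 10 of 20007 genes in adult testis and 10 of 17816 genes in Sertoli cell cultures of day 7 after birth by their titles. Sohlh1 and Sohlh2 act in spermatogonia, Mybl1, Tcfl5 and Zfp541 in pachytene spermatocytes, Rfx2 and Sox30 from pachytene spermatocytes to round spermatids, and Crem, Tbpl1 and Taf7l mainly in round spermatids. Taf7l is also present in spermatogonia, so its place at the end of the order holds for its known role in spermatids alone.

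RNA was sequenced after oligo(dT) enrichment in 10 mouse samples, to compare gene expression with and without Rnf20, which encodes the E3 ligase that places ubiquitin on histone H2B. The adult samples were whole testes, 3 labelled with the genotype WT and 3 labelled as RNF20 conditional knockout, called here control and labelled KO. The growth protocol of all 10 samples reads adult tissue, and day 7 was taken from the sample titles and the study's methods. The samples of day 7 were Sertoli cells, the somatic cells that nurse germ cells inside the seminiferous tubules, 2 of the WT genotype by label and 2 of the conditional knockout. In this study the knockout is Amh-Rnf20-/-, made by crossing Rnf20 Flox/Flox mice with mice in which the Amh promoter drives Cre in Sertoli cells, and the controls at day 7 were Rnf20 Flox/Flox. The knockout is therefore aimed at Sertoli cells, whereas the regulators described here are best known from germ cells. The day 7 cells were dispersed with enzymes, cultured and passaged, and the adherent cells were used. The study's methods name 3 individuals per group at day 7, whereas the data used here hold 2 samples per group, all of them analysed. The methods do not describe the adult experiment. The labels do not state the exact age of the adult mice or whether replicates came from separate animals, so p-values measure the spread between these samples.

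The regulators work as a cascade. SOHLH1 and SOHLH2 are basic helix-loop-helix proteins that drive spermatogonia to differentiate, and the A-MYB protein of Mybl1 is a master regulator that switches on many pachytene genes. RFX2 and SOX30 open the programme of round spermatids, and the CREM activator, with the TBP-related factor of Tbpl1 and the TFIID subunit of Taf7l, drives the late genes that package the sperm nucleus and build the tail. Fewer cells of a type and less RNA per cell cannot be told apart in bulk samples.

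Depth was between 15431912 and 16574144 counts per adult sample and between 17477268 and 17705347 per day 7 sample. Rnf20 itself stood at FPKM (fragments scaled by transcript length and library size) of 4.89, 3.32 and 4.09 in the adult controls and 9.16, 5.76 and 9.85 in the labelled KO libraries, so mRNA of the targeted gene was not lower under the knockout label (log2 difference 0.12, SE 0.27, adjusted p = 0.688, edgeR). At day 7 it was 16.64 and 16.01 in the controls against 10.25 and 12.58 in the KO (log2 difference −0.49, SE 0.12, adjusted p = 0.222, edgeR). The knockout is aimed at Sertoli cells, and a level per gene in whole testis does not show its loss in these cells alone. By Western blot, the paper reported less RNF20 protein in adult testes of its knockout mice. Labelled KO 1 stood apart from the other adult KO libraries. Its counts had a chi-square over degrees of freedom of 88.1 against KO 2 and 118 against KO 3, whereas KO 2 and KO 3 gave 21.4 and pairs of controls 13.7 to 17.6. The germ cell marker Ddx4 was at FPKM 0.93 in KO 1 and at 21.37 and 33.60 in KO 2 and KO 3. Its control mean was 184. The Sertoli cell marker Sox9 was at 1.2, 9.86 and 12.65, beside a control mean of 1.83. Not every Sertoli cell marker was low in KO 1, since Gata4 was level over the labelled KO libraries (mean 55.4, SD 2.14). Adult results are therefore given with and without KO 1.

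The promoters of 8 of the 10 genes, all but Mybl1 and Crem, were read from RefSeq (GRCm38.p6, 250 bases before to 50 after the transcription start, on the gene's strand). Shown here are the 4 that hold a MYB core, the letters read by A-MYB, and Sohlh1, which holds the largest number of E-boxes of the 8. Capitals mark the E-box CACGTG in Sohlh1, the MYB core TAACNG in Tcfl5, Zfp541, Rfx2 and Sox30, and in Rfx2 also the RFX half-site GTTGCC, which shares 1 base with the MYB core.
Sohlh1: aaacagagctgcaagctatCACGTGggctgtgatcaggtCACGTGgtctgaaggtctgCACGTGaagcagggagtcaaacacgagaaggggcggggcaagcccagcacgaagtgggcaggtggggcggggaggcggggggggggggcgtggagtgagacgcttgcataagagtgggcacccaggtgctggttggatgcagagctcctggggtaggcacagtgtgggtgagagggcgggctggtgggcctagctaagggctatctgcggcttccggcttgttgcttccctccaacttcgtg
Tcfl5: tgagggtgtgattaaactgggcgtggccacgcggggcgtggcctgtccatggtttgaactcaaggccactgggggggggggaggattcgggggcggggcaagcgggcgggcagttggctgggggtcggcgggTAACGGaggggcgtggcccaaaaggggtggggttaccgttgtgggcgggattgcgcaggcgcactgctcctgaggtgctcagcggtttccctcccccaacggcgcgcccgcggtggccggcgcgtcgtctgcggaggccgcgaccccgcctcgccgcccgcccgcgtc
Zfp541: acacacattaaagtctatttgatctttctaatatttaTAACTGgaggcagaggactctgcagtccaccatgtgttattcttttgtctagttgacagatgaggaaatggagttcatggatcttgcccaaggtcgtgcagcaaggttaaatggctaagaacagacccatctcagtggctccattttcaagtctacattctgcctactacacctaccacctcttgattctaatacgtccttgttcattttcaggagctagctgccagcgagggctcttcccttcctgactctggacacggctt
Rfx2: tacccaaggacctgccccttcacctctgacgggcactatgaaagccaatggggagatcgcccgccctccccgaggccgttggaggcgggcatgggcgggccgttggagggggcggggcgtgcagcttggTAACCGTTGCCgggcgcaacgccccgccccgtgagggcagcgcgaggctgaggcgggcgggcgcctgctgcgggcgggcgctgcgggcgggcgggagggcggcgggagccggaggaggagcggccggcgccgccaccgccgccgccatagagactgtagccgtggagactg
Sox30: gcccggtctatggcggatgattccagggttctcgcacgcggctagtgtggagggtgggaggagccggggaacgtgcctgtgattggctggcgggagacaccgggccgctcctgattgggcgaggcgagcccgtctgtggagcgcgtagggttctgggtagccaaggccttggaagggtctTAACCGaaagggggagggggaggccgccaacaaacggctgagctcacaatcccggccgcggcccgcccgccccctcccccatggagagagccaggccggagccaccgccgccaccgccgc

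These windows lie at chr2:25847199-25847498 (minus strand) for Sohlh1, chr2:180642642-180642941 (minus) for Tcfl5, chr7:16071595-16071894 (plus) for Zfp541, chr17:56830959-56831258 (minus) for Rfx2 and chr11:45980060-45980359 (plus) for Sox30. The starts used for Zfp541 and Sox30 lie inside the annotated gene spans. Both strands were searched. A MYB core was found in 4 of the 8 promoters, beginning at −118 from the start in Tcfl5, −213 in Zfp541, −121 in Rfx2 and −70 in Sox30, and 23.3% of 32851 promoters of the same length held at least 1. No match was found in Sohlh1, Sohlh2, Tbpl1 or Taf7l. The Sohlh1 promoter held 3 E-boxes, at −231, −211 and −192, a number reached by 0.09% of all promoters, and Taf7l held 1 at −49. At least 1 E-box was present in 7.15% of promoters, and the RFX half-site of Rfx2, at −116, in 12.51%. The full cyclic AMP response element TGACGTCA, the letters read by CREM, was in none of the 8 and in 1.79% of all promoters. Its half-site TGACG, present in 20.81%, was found in Sohlh2 and Rfx2, and the SOX core ACAAT, present in 31.02%, in Sox30 and Taf7l. A match is only a match of letters, and no binding was measured.

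In the adult controls the regulators covered a wide range of FPKM, a level per transcript length. Tcfl5 was highest at 203 ± 6.72 (SD, n = 3), followed by Crem at 135 ± 5.84, Tbpl1 at 123 ± 5.33, Rfx2 at 109 ± 6.28, Sox30 at 98.8 ± 6.09 and Zfp541 at 44.7 ± 3.10. Taf7l at 21.4 ± 2.77 and Mybl1 at 9.45 ± 1.41 were lower, and the spermatogonial Sohlh2 and Sohlh1 were lowest at 5.61 ± 0.30 and 5.08 ± 0.25. Neighbours in this order did not overlap between samples, except Rfx2 and Sox30.

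**Figure D1:**
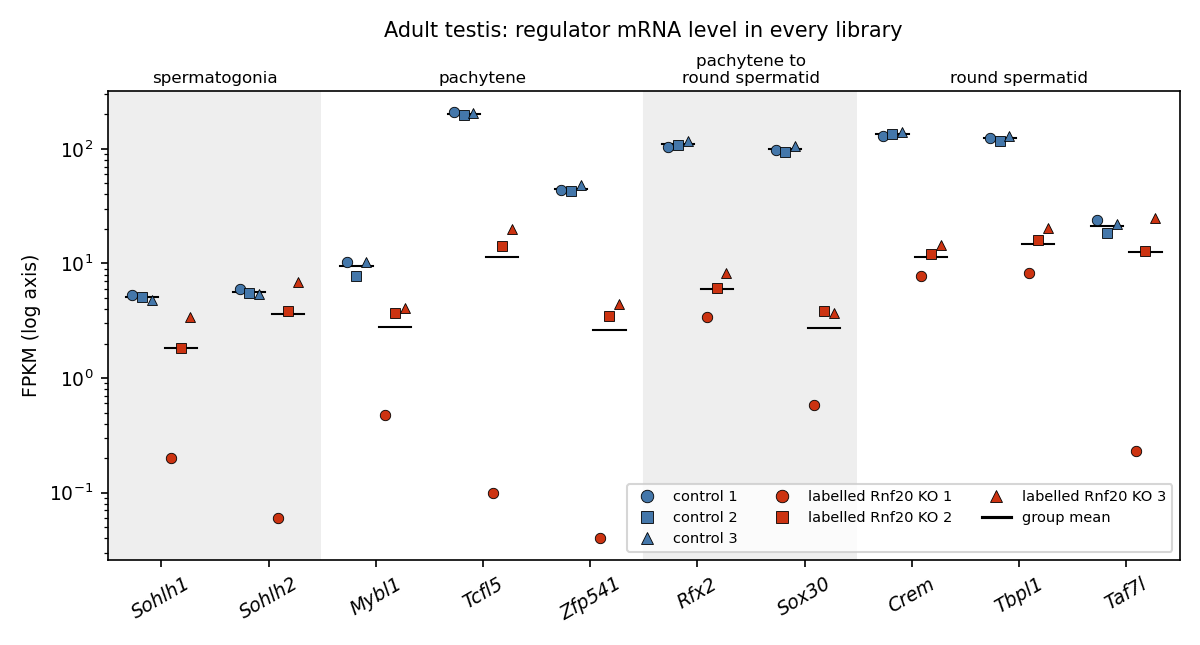
FPKM (log axis) of the 10 regulators in every adult library, ordered by stage, with controls in blue, labelled KO libraries in red and a bar at each group mean. All labelled KO libraries lay below all controls for 8 of the 10 genes, and Sohlh2 and Taf7l overlapped.

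In the labelled KO testes, 4 of the 10 regulators, Rfx2, Sox30, Crem and Tbpl1, fell past both thresholds (absolute log2 difference over 1 and adjusted p under 0.001, edgeR's quasi-likelihood test on TMM-scaled counts) and none rose. Over all 15919 genes tested, 23.7% were called lower and 23.0% higher. At an adjusted p under 0.05 without a fold threshold, 8 of the 10 were lower, against 40.6% of all genes. FPKM of every labelled KO library was below every control in 8 of the 10 and in 32.4% of all genes, and above every control in none of the 10 and in 54.9% of all genes. The median log2 difference of the 10 was −4.25, beside 0.01 over all genes.

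Sohlh1 (Entrez 227631, chromosome 2 of GRCm38.p6, 25842995 to 25847248) was measured at FPKM 5.33, 5.07 and 4.83 in control testes, against 0.20, 1.84 and 3.44 in the labelled KO libraries. Every KO value was below every control, but KO 3 kept 67.8% of the control mean and KO 1 only 3 counts. The log2 difference of −2.25 (SE 0.80, adjusted p = 0.0381, edgeR) did not reach the stricter threshold. Sohlh2, its partner in spermatogonia (Entrez 74434, chromosome 3, 55182044 to 55209957), was at 5.94, 5.52 and 5.37 in the controls against 0.06, 3.84 and 6.87 in the KO. KO 3 thus lay above all controls for Sohlh2, KO 2 below them and KO 1 close to 0, with 2 counts. The groups overlapped and the log2 difference of −1.55 (SE 1.06, adjusted p = 0.216, edgeR) did not pass.

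Mybl1, the source of A-MYB (Entrez 17864, chromosome 1, 9667407 to 9700439), was at FPKM 10.21, 7.82 and 10.32 in the controls against 0.48, 3.70 and 4.11 in the labelled KO. It did not overlap, and KO 2 and KO 3 kept 39.2% and 43.5% of the control mean, a larger share than the other pachytene regulators. Its log2 difference was −2.65 (SE 0.69, adjusted p = 0.0114, edgeR).

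Tcfl5, a helix-loop-helix factor needed in pachytene spermatocytes (Entrez 277353, chromosome 2, 180621956 to 180642691), was at FPKM 208.31, 195.36 and 204.95 in the controls against 0.10, 14.26 and 19.99 in the labelled KO. The most abundant regulator of the control testis was therefore down to 3 counts in KO 1, while 7.03% and 9.85% of its control level remained in KO 2 and KO 3. This spread within the KO gave a large standard error, with a log2 difference of −5.05 (SE 1.47, adjusted p = 0.0179, edgeR). Tcfl5 was the 1 regulator whose estimated counts were not whole numbers, and its last bases (180621956 to 180622192) overlap Col9a3. How strand was handled is not given in the sources used here, and reads from an overlap cannot be told apart without it.

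Zfp541, which works with KCTD19 and histone deacetylases to let pachytene spermatocytes complete meiotic prophase (Entrez 666528, chromosome 7, 16061775 to 16096340), followed Tcfl5 closely. Its FPKM was 43.45, 42.39 and 48.21 in the controls against 0.04, 3.46 and 4.39 in the labelled KO, or 0.0895%, 7.74% and 9.82% of the control mean. All KO values were far below all controls, and the log2 difference was −5.02 (SE 1.28, adjusted p = 0.0106, edgeR).

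Rfx2, a winged-helix factor for cilium and spermatid genes (Entrez 19725, chromosome 17, 56775897 to 56831008), fell from FPKM 104.05, 107.17 and 116.15 in the controls to 3.43, 6.06 and 8.32 in the labelled KO. KO 1 kept more of Rfx2 than of Tcfl5 or Zfp541, and the 3 KO libraries lay closer together (log2 difference −5.08, SE 0.35, adjusted p = 6.09e-05, edgeR). Sox30, an HMG-box factor without which spermatids arrest at the round stage (Entrez 214105, chromosome 11, 45979069 to 46017992), fell from 97.02, 93.73 and 105.54 to 0.58, 3.88 and 3.72. It had the largest difference of the 10 fitted with edgeR (−6.08, SE 0.76, adjusted p = 4.77e-04) and the smallest share left in KO 2 and KO 3, 3.93% and 3.77% of the control mean. With limma on log2(FPKM + 0.1) the difference of Tcfl5 was larger, −5.71 against −5.50 for Sox30.

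Crem, the cyclic AMP-responsive factor that is the master regulator of spermiogenesis (Entrez 12916, chromosome 18, 3266354 to 3337773), fell from FPKM 128.53, 135.18 and 140.17 to 7.69, 12.03 and 14.48. The gene also makes repressor isoforms from an inner promoter, which are found outside germ cells, and counts per gene do not separate them from the activator. Its log2 difference of −4.46 (SE 0.27, adjusted p = 4.36e-05, edgeR) had the smallest standard error of the 10, and even KO 1 held 245 counts. Tbpl1, a relative of the TATA-binding protein that spermatids require (Entrez 237336, chromosome 10, 22703877 to 22732666), fell from 124.09, 117.49 and 128.05 to 8.23, 15.87 and 20.28. The log2 difference was −4.04 (SE 0.36, adjusted p = 1.25e-04, edgeR), and in KO 1 its FPKM was the highest of the 10.

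Taf7l, an X-linked relative of the TFIID subunit TAF7 (Entrez 74469, chromosome X, 134460116 to 134476505), did not follow the other spermatid regulators. Its FPKM was 23.71, 18.34 and 22.18 in the controls against 0.23, 12.84 and 24.85 in the labelled KO. KO 3 was above every control, KO 2 below them and KO 1 at 5 counts, as for Sohlh2. The log2 difference was −1.66 (SE 1.14, adjusted p = 0.218, edgeR).

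**Figure D2:**
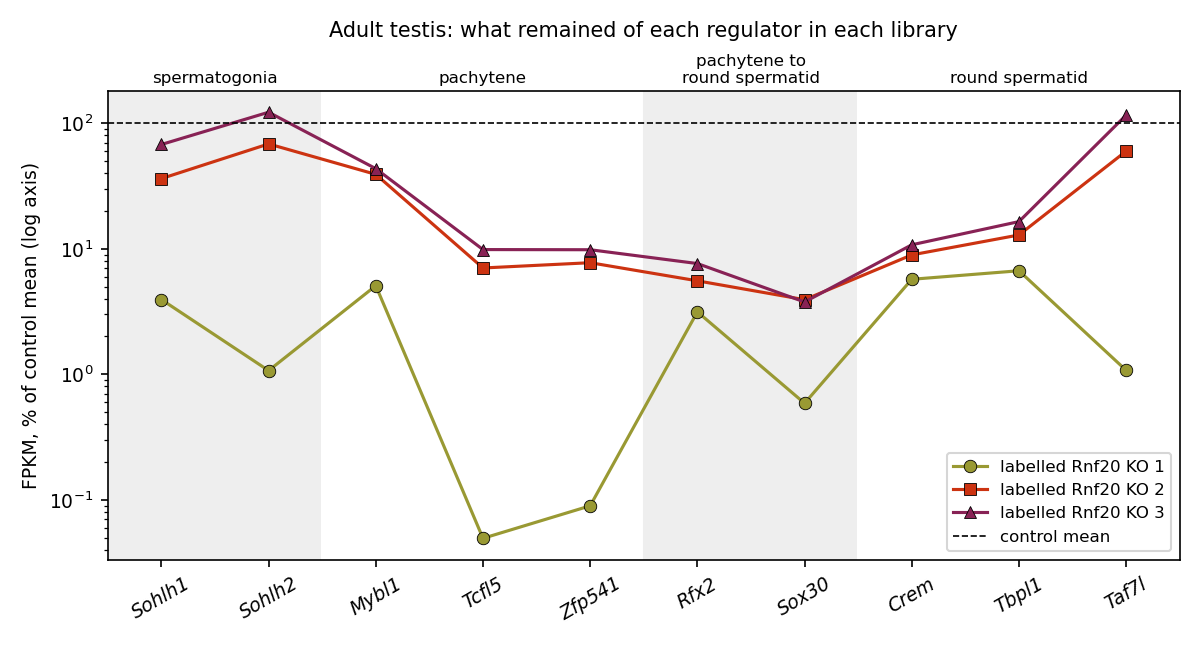
FPKM of each regulator in each labelled KO library as a percentage of the control mean (log axis, dashed line at the control mean), ordered by stage. In KO 2 and KO 3 the values of the genes from Tcfl5 to Tbpl1 lie between 3.77% and 16.5%, whereas Sohlh1, Sohlh2 and Taf7l lie between 36.2% and 122%.

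Read by stage, what remained in KO 2 and KO 3 differed between early and late regulators. Sohlh1 and Sohlh2 kept 36.2% to 122% of the control FPKM, Mybl1 39.2% and 43.5%, and the 6 genes from Tcfl5 to Tbpl1 between 3.77% and 16.5%. Taf7l, at 60.0% and 116%, was with the spermatogonial genes. KO 1 had another profile: there no gene of the 10 kept more than 6.68%, the share of Tbpl1, with Crem at 5.71% and Mybl1 at 5.08% next. No test of an order over 10 genes was made, since the genes were measured in the same libraries. The order of levels also changed: in KO 2 and KO 3 Taf7l at a mean FPKM of 18.8 was ahead of Tbpl1 at 18.1, Tcfl5 at 17.1 and Crem at 13.3, and these 4 overlapped as neighbours.

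Without KO 1, the remaining 5 libraries gave 7 of 10 regulators called lower and none higher, against 31.6% and 33.1% of all genes. Mybl1 (log2 difference −2.02, SE 0.14, adjusted p = 1.59e-06, edgeR), Tcfl5 (−4.33, SE 0.16, adjusted p = 3.53e-08, edgeR) and Zfp541 (−4.31, SE 0.14, adjusted p = 1.95e-08, edgeR) joined the 4 genes called with all samples. Sohlh1 (−1.61, adjusted p = 0.00281), Sohlh2 (−0.84, adjusted p = 0.00686) and Taf7l (−0.95, adjusted p = 0.00360) were not called, Sohlh1 having passed the fold threshold but not that on the adjusted p. The count was 3 without control 1 or without KO 3, and 2 without control 2, control 3 or KO 2, where Rfx2 and Crem alone were called. Of all 15919 genes, 1793 were called lower without control 1 and 1951 without KO 3. Without control 2, control 3 and KO 2 it was 1613, 1641 and 1684 genes. The scaling between libraries bore on several of these values. The TMM factors were 0.710 to 0.761 in the controls and 1.27 to 1.42 in the labelled KO, and with scaling to total counts the median of all genes moved from 0.01 to 0.87. On that scale 6 of the 10 were lower at an adjusted p under 0.05 in place of 8, since Mybl1 (−1.76, adjusted p = 0.0527, edgeR) and Sohlh1 (−1.36, adjusted p = 0.166) no longer passed. The share of all genes at that level is not given for this scale. At both thresholds it called 2252 of all 15919 genes lower in place of 3772. On that scale and without KO 1, Sohlh2 differed by −0.07 (adjusted p = 0.799, edgeR), Taf7l by −0.18 (adjusted p = 0.514) and Sohlh1 by −0.83 (adjusted p = 0.0658), and the other 7 were still called lower, Mybl1 by −1.27 (adjusted p = 8.3e-05). No regulator changed sign in the adult comparison under any setting tried.

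Several of the regulators have relatives that are expressed in many cell types, and the ratio of both within a library needs no scaling between libraries. All ratios given are of FPKM with 0.1 added to both genes, which sets the value where a gene is near 0, as in KO 1. The ratio of Crem to Creb1, its relative of somatic cells, was 55.2, 70.1 and 57.7 in the controls against 1.06, 1.62 and 1.90 in the labelled KO. Creb1 itself was at 2.23, 1.83 and 2.33 in the controls against 7.24, 7.41 and 7.58 in the KO, which is higher in each KO library, but not past both thresholds (log2 difference 0.96, SE 0.12, adjusted p = 5.02e-04, edgeR). Without KO 1 it was called higher (1.07, SE 0.14, adjusted p = 7.39e-05, edgeR). Both parts of the ratio therefore moved.

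**Figure D3:**
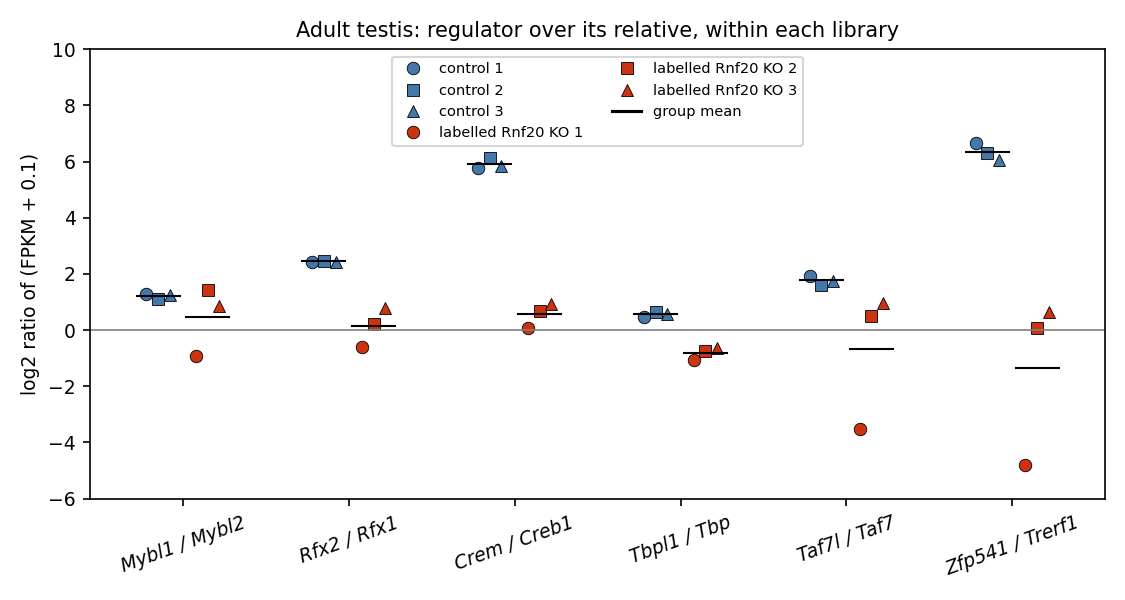
Log2 ratio of FPKM + 0.1 of a regulator to its relative within each adult library, with controls in blue, labelled KO in red and a bar at each group mean. The groups are apart for 5 of the 6 pairs, and Mybl1 over Mybl2 overlaps.

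Rfx2 over Rfx1, a widely expressed member of its family, was 5.42, 5.47 and 5.41 in the controls against 0.665, 1.15 and 1.74 in the labelled KO, where Rfx1 itself fell (log2 difference −3.03, SE 0.13, adjusted p = 2.75e-05, edgeR). Tbpl1 over Tbp, the general TATA-binding protein, changed less, from 1.39, 1.57 and 1.49 to 0.481, 0.603 and 0.643. Tbp was itself abundant in the control testis, at FPKM 89.53, 74.67 and 85.82, and fell to 17.23, 26.38 and 31.60 (log2 difference −2.60, adjusted p = 1.02e-04, edgeR).

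Taf7l over Taf7 was 3.83, 3.07 and 3.36 in the controls against 0.0878, 1.43 and 1.95 in the labelled KO. Taf7l was thus lower than the controls relative to Taf7 in each of the 3 KO libraries, although its own FPKM overlapped, with Taf7 at 6.12, 5.90 and 6.54 against 3.66, 8.96 and 12.69. Zfp541 over Trerf1, a zinc-finger relative with similar domains, went from 101, 78.7 and 67.1 to 0.0361, 1.05 and 1.54. Trerf1 was not stable in this ratio, with FPKM 0.33, 0.44 and 0.62 in the controls against 3.78, 3.29 and 2.81 in the labelled KO (log2 difference 1.95, SE 0.30, adjusted p = 0.00114, edgeR), and it was called higher without KO 1 (1.94, adjusted p = 1.38e-04). Mybl1 over Mybl2, which serves dividing cells, was 2.41, 2.18 and 2.40 against 0.527, 2.66 and 1.83 and overlapped, and Mybl2 itself fell (log2 difference −2.23, SE 0.27, adjusted p = 3.94e-04, edgeR).

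On the log2 scale, the ratio in the labelled KO minus that in the controls was −5.36 for Crem, −2.30 for Rfx2, −1.37 for Tbpl1, −2.44 for Taf7l and −7.71 for Zfp541. Each gave p = 0.1 in an exact two-sided permutation test, the smallest that 3 against 3 can give, and 0.12 after adjustment over 6 pairs. For Mybl1 it was −0.76 (exact permutation p = 0.4). In adult testis no such difference changed sign under another pseudocount, with TPM, or with any library left out. Without KO 1 the difference was −1.03 for Taf7l and −0.08 for Mybl1, so KO 1 decided the size of both, and without KO 2 it was −1.24 for Mybl1. Of the 9 relatives, 8 passed the filter on low values (Myb did not), 5 were called lower and none higher, against 23.7% and 23.0% of all genes. Without KO 1, Creb1 and Trerf1 were called higher beside 5 lower.

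A list of 26 partners and neighbours of the regulators, such as cofactors and factors of the same stages, was read in the same way. Of these, 25 were tested, 8 were called lower, and Zbtb16, Foxo1 and Etv5 were called higher, with a median log2 difference of −1.94, where 23.7% of all genes were called lower and 23.0% higher. Without KO 1, 14 were called lower and 3 higher, against 31.6% and 33.1% of all genes. Kctd19, the partner of Zfp541, had FPKM 160.65, 155.25 and 164.94 in the controls against 0.02, 11.15 and 15.13 in the labelled KO. This pattern across the libraries was close to that of Zfp541, with a log2 difference of −5.09 (SE 1.59, adjusted p = 0.0237, edgeR) that was called without KO 1 (−4.37, adjusted p = 2.95e-08). Fhl5, the coactivator of CREM also known as ACT, fell from 391.53, 392.36 and 387.10 to 0.59, 2.45 and 2.67 (log2 difference −8.61, SE 0.68, adjusted p = 8.47e-05, edgeR). Less of Fhl5 than of Crem remained in every KO library, 0.151%, 0.628% and 0.684% of the control mean.

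Gtf2a1l, the germ cell form of TFIIA that acts with the product of Tbpl1, was at 226.18, 261.02 and 221.57 in the controls against 0.05, 13.20 and 12.14 in the labelled KO (log2 difference −5.70, SE 1.46, adjusted p = 0.0109, edgeR, and −4.98, adjusted p = 3.49e-08 and called, without KO 1). Brdt, a bromodomain reader of spermatocytes and spermatids, fell from 233.32, 146.10 and 200.96 to 2.11, 11.34 and 12.03 (log2 difference −4.69, adjusted p = 2.17e-04, edgeR). Taf4b, a TFIID subunit of spermatogonia, overlapped at 3.28, 2.86 and 3.21 against 1.76, 5.27 and 7.90 (log2 difference −0.21, adjusted p = 0.692, edgeR). Stra8, which commits germ cells to meiosis, was at 10.58, 9.43 and 8.43 in the controls against 0, 13.11 and 35.86 in the labelled KO. KO 2 and KO 3 were above all controls, and KO 1 had 0 counts, where up to 3 counts cannot be told from 0 (log2 difference −0.13, adjusted p = 0.931, edgeR, and 0.57, adjusted p = 0.135, without KO 1).

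The last germ cell stage was read from 6 genes of elongating spermatids, which are also known to need Crem: Prm1, Prm2, Tnp1 and Tnp2, which package the sperm nucleus, and Odf1 and Smcp of the tail. All 6 were lower in every labelled KO library and 4 were called, with log2 differences from −8.97 for Odf1 to −14.60 for Prm1 and a median of −13.01. Over all genes 32.4% lay below every control and 23.7% were called lower. Odf1 and Smcp were not called with all libraries and were called without KO 1 (−8.25, adjusted p = 1.43e-08, and −8.75, adjusted p = 1.75e-08, edgeR). Their summed FPKM was between 125820 and 194955 in the controls against 1.58, 83.1 and 36.7 in the KO. In the same libraries Crem kept 5.71%, 8.94% and 10.8% of its control level, so a larger share was left of the regulator than of these genes.

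Marker genes of other cell types moved with the regulators in the labelled KO, and their part in the results was not tested. As the median log2 ratio of FPKM + 0.1 to the control mean in KO 1, KO 2 and KO 3, the list of early spermatocytes (7 genes) stood at −6.27, −1.59 and −0.78. Of these 7, 4 lay below the controls in every labelled KO library. Stra8 and Prdm9 were above all controls in KO 2 and KO 3. Markers of pachytene spermatocytes (7 genes) stood at −9.99, −3.91 and −3.52 and those of round spermatids (6 genes) at −9.86, −5.58 and −5.19. The later the stage of a marker list, from early spermatocytes on, the lower its median was in KO 2 and KO 3. Elongating spermatids, the 6 genes given above, were lowest at −15.62, −10.94 and −12.91. All 7 pachytene and all 6 round spermatid markers were below the controls in every labelled KO library, as were 32.4% of all genes.

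**Figure D4:**
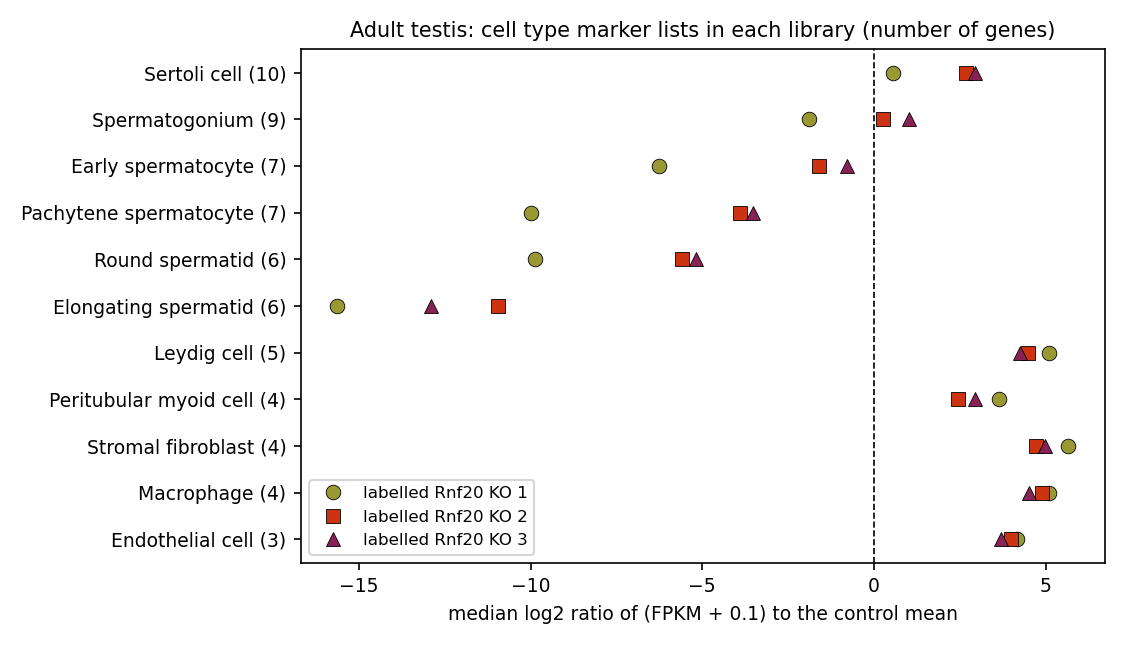
Median log2 ratio of FPKM + 0.1 to the control mean over each list of cell type markers (number of genes in brackets), 1 symbol for each labelled KO adult library. Germ cell lists lie lowest in KO 1, lists of interstitial cells lie above the dashed line (control mean) in each library, and the Sertoli cell list is at 0.55 in KO 1 against 2.68 and 2.94.

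The 9 markers of spermatogonia stood at −1.90, 0.27 and 1.03, with a summed FPKM of 233 to 258 in the controls against 61.2, 289 and 384 in the labelled KO. Its members went both ways. Kit, Etv5 and Zbtb16 were called higher, and Kit is known also in Leydig cells and Etv5 in Sertoli cells. Gfra1, Id4, Nanos3 and Ddx4 were below the controls in every labelled KO library, with log2 differences of −1.76, −2.18, −2.83 and −4.20 that missed the stricter threshold (adjusted p = 0.00181, 0.00549, 0.0106 and 0.0130, edgeR). Without KO 1, Gfra1 (−1.80), Id4 (−1.65) and Ddx4 (−3.52) were called lower and Nanos3 (−2.17, adjusted p = 0.00520) was not, and Uchl1 was called higher (1.69, adjusted p = 2.06e-05). The Sertoli cell list (10 genes) stood at 0.55, 2.68 and 2.94, with a summed FPKM of 576 to 747 in the controls against 2733, 5034 and 5790 in the KO. Most of that sum was Clu, at a mean FPKM of 495 in the controls and 3740 in the KO. Gata4 was called higher (log2 difference 3.03, adjusted p = 2.70e-05, edgeR) and Rhox5 was called lower (−5.57, adjusted p = 1.58e-04), and both were also called without KO 1. Without KO 1, 9 of the 10 were called higher, all but Rhox5, against 33.1% of all genes. In KO 1 the genes Stra8, Sall4, Nanos3, Ccna1, Pgk2, Acrv1, Izumo1, Prm1 and Smcp had 0 counts. Every marker of Leydig cells (5 genes), stromal fibroblasts (4) and macrophages (4) was called higher in the labelled KO testes, with median log2 differences of 3.75, 4.57 and 3.92. Of the peritubular myoid markers 2 of 4 were called higher, and of the endothelial markers 2 of 3. Over all genes 23.0% were called higher. The markers called higher thus took a larger share of the counts, where Rfx2, Sox30, Crem and Tbpl1 took a smaller one. Sohlh2 and Taf7l overlapped the controls.

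At day 7, before germ cells of the mouse reach the spermatid stages, the regulators were low in the Sertoli cell cultures and none was called. KO 1 lay farther from the controls than KO 2 did, with a chi-square over degrees of freedom of 55.6 and 57.3 against 20.7 and 22.5, and the pair of KO cultures gave 34.3 where the pair of controls gave 2.65. The median log2 ratio of the Sertoli cell markers to the control mean was −1.32 in KO 1 and −0.46 in KO 2. Of the 10 genes, 8 passed the filter, and Zfp541 and Sox30 did not. No gene of the 12880 tested passed both thresholds with edgeR, and 1997 had an unadjusted p under 0.05, 6.99% of all genes on the lower side and 8.52% on the higher. None of the 8 regulators was among them with edgeR or DESeq2, which called 126 genes. With limma on log2(FPKM + 0.1), 2 of the 8 had an unadjusted p under 0.05, beside 1983 of all 12880 genes in either direction. The smallest adjusted p over all genes was 0.0961. The median log2 difference of the 8 was −0.43, beside −0.004 over all genes. With the same thresholds, the paper reported genes both higher and lower in its knockout Sertoli cells of that age. Its methods name more individuals per group than the data used here hold, and they do not name the test. The lack of calls with edgeR therefore holds for these libraries and this fit alone.

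**Figure D5:**
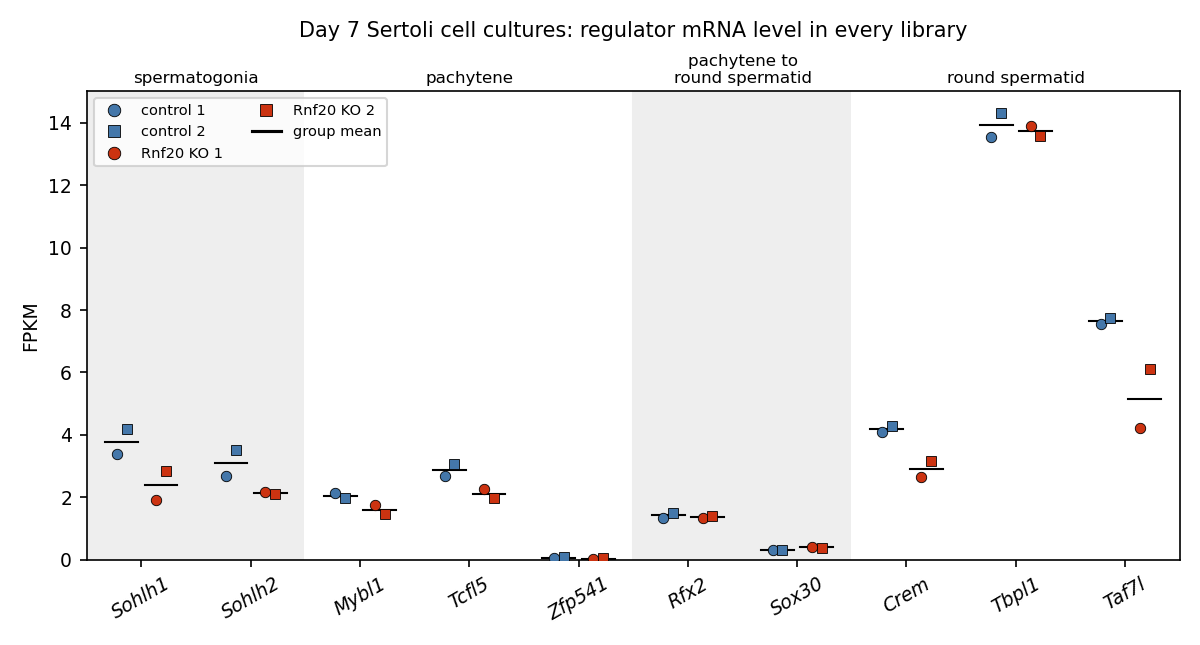
FPKM of the 10 regulators in the 4 day 7 libraries, ordered by stage, with controls in blue, Rnf20 KO in red and a bar at each group mean. Tbpl1 is highest, at 13.56 to 14.31, and is level in all 4 libraries, and Zfp541 and Sox30 are near 0.

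Sohlh1 was at FPKM 3.37 and 4.18 in the controls against 1.91 and 2.85 in the KO (log2 difference −0.60, SE 0.26, adjusted p = 0.370, edgeR). Sohlh2 was at 2.69 and 3.50 against 2.18 and 2.10 (−0.49, SE 0.22, adjusted p = 0.373, edgeR). Both spermatogonial regulators were lower in both KO cultures without passing the test. Their levels rest on 34 to 66 counts per library for Sohlh1, which limits what this depth could show.

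Taf7l, also known from spermatogonia, was at 7.54 and 7.74 in the controls against 4.22 and 6.10 in the KO (−0.51, SE 0.22, adjusted p = 0.371, edgeR). Crem was at 4.09 and 4.27 against 2.66 and 3.15 (−0.47, SE 0.19, adjusted p = 0.349, edgeR). Without KO 2, Taf7l differed by −0.80 (adjusted p = 0.00485, edgeR), Crem by −0.64 (adjusted p = 0.0240) and Sohlh1 by −0.84 (adjusted p = 0.0442), and without KO 1 the values were −0.26 (adjusted p = 0.211), −0.31 (adjusted p = 0.210) and −0.40 (adjusted p = 0.305). KO 1 thus lay farther from the controls than KO 2 for these 3 genes. For Mybl1, Tcfl5 and Sohlh2 it was KO 2, with −0.22, −0.28 and −0.46 without KO 2 against −0.46 (adjusted p = 0.0749, edgeR), −0.51 and −0.52 without KO 1.

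Mybl1 at 2.12 and 1.99 against 1.74 and 1.47 and Tcfl5 at 2.68 and 3.05 against 2.27 and 1.96 were lower by 0.34 and 0.39 on the log2 scale (adjusted p = 0.413 and 0.431, edgeR). Rfx2 at 1.35 and 1.5 against 1.33 and 1.41 (log2 difference −0.01, SE 0.20) and Tbpl1 at 13.56 and 14.31 against 13.91 and 13.59 (0.02, SE 0.09) overlapped. Tbpl1 had the highest FPKM of the 10 at day 7, ahead of Taf7l and Crem, and Rfx2, Sox30 and Zfp541 had the lowest. Zfp541 had 4 and 5 counts in the controls against 2 and 3 in the KO, and Sox30 had 14 and 15 against 19 and 17.

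FPKM of both KO cultures lay below both controls for 6 of the 8 tested regulators and 31.1% of all genes, and above both for none of the 8 and 19.7% of all genes. The genes that mark spermatogonia did so in 7 of 9 cases, with a summed FPKM of 177 to 190 in the controls against 137 and 129 in the KO. The germ cell marker Ddx4 was at 5.48 and 6.93 against 3.70 and 4.12, so germ cell transcripts were present in these cultures, and Stra8 was at 18.80 and 23.04 against 10.32 and 15.27. Of 10 Sertoli cell markers 8 were below both controls in both KO cultures, Rhox5 was above them and Fshr overlapped. Their summed FPKM was 1530 to 1675 in the controls against 854 and 1226 in the KO. Most of it was Clu, at a mean of 910 and 698. All 4 peritubular myoid markers were above the controls, with sums of 1841 to 1936 against 3366 and 3462. So were all 4 of stromal fibroblasts, at 1395 to 1433 against 2655 and 2174, and 4 of 5 of Leydig cells, at 149 to 156 against 301 and 205. No gene of these lists was called. The part of these lists in the values of the regulators was not tested. Of the 26 partner genes 18 were tested at day 7, none was called, and the median log2 difference was −0.26. The ratios of the regulators to their relatives differed by −0.44 for Mybl1, −0.32 for Taf7l, −0.30 for Crem, −0.15 for Zfp541, −0.01 for Rfx2 and 0.02 for Tbpl1 on the log2 scale, where 2 against 2 samples cannot give an exact permutation p under 0.333. For Mybl1 the log2 ratio was −2.24 and −2.20 in the controls against −2.29 in KO 1 and −3.04 in KO 2. For Taf7l it was 0.81 and 0.83 against 0.27 and 0.73. For Zfp541 it was −4.597 and −4.505 against −4.866 and −4.537, so KO 2 lay between the controls. The size of these differences thus depended on the KO culture.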

How the data were processed

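RNA from adult testes and from day 7 Sertoli cell cultures was sequenced on the BGISEQ platform. The authors used HISAT to map reads to GRCm38.p6 and Bowtie2 to map them to reference genes, and calculated FPKM with RSEM (versions and strand handling are not given in the sources used here, and the methods describe day 7 alone). The deposited tables hold estimated counts, which are not normalized, and the authors' FPKM and TPM, scaled by transcript length and library size. The adult table has 20 empty columns, which were not used.

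Groups came from the labels, and each table was fitted on its own. Estimated counts, of which 10.7% to 13.2% of genes per adult library and 11.1% to 11.6% per day 7 library were not whole, were rounded. A gene was tested if its FPKM reached 0.5 in a number of samples no smaller than the smaller group (15919 genes in adult testis and 12880 at day 7), with edgeR's quasi-likelihood test, TMM scaling and Benjamini-Hochberg adjustment over all of them. A gene was called at an absolute log2 difference over 1 and an adjusted p under 0.001, as in the study's methods. Standard errors are the absolute log2 difference over the square root of the F statistic. Ratios to relatives used log2(FPKM + 0.1) and an exact permutation test. Counts are given beside some of the values near 0. In adult KO 1, Zfp541 and Meioc also rested on 3 counts, Kctd19, Gtf2a1l and Dmrtb1 on 1, and Fhl5 on 7. The closest pair of libraries, the day 7 controls, had a chi-square of 2.65 per degree of freedom, and no library was counted as a duplicate.

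The named genes were all 10 regulators, Rnf20, the 9 relatives except Rfx3 and Atf1, 6 of 26 partner genes, and the extremes of the genes that need Crem. Rfx3 and Atf1 were called lower in adult testis (log2 difference −3.16 and −1.42, edgeR). Members and lists were chosen with earlier results of these data known. Alternatives covered scaling, DESeq2, limma, filters, thresholds, a replicate block and each library left out. The fits were tested on simulated data. Absolute log2 differences of 2 and 3 were put into 90 and 110 of 15919 adult genes and 85 and 115 of 12880 day 7 genes. There the adult fit missed these changes at the calling thresholds and found most of them at an adjusted p under 0.05. The day 7 fit found most at the calling thresholds. In the real adult data 7432 genes were called, so the simulated rates do not carry over to them. Changes as small as those of the regulators at day 7 were not simulated. An adult gene that was not called is not shown to be unchanged. Other markers and partners that are named were chosen after their values were seen. Promoters come from the RefSeq table of GRCm38.p6. The tools were R 4.3.3, edgeR 4.0.16, limma 3.58.1, DESeq2 1.42.0, Python 3.11.15, numpy 2.4.6, pandas 2.3.3, scipy 1.17.1 and matplotlib 3.10.9.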

Additional observations from a re-analysis of the deposited data

Results flagged for a closer look

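For some genes the KO libraries lay on opposite sides of the controls in adult testis and in the day 7 cultures, or of the control mean. Among the regulators this held for Sox30, among the 9 relatives for Creb1 and among the 26 partners for 9 genes. The groups did not overlap in either table, except for Prdm9 in adult testis. The share of all genes on opposite sides is not given here, so these counts cannot be set against it. In adult testis 54.9% of all genes lay above every control and 32.4% below, and at day 7 19.7% and 31.1%. Genes of the marker lists lay on opposite sides as well, among them 6 of 10 Sertoli cell markers (Amh, Wt1, Gata4, Clu, Rhox5 and Inha) and 4 of 9 markers of spermatogonia (Zbtb16, Kit, Id4 and Etv5). None of the day 7 differences of the regulators, Rnf20, relatives and partners given here passed the test (smallest adjusted p = 0.194, for Sox5, edgeR), and Sox30 and Kctd19 were not tested at day 7. The difference between the tables was not tested, since they were made separately and hold different material. As log2 ratios of mean FPKM + 0.1, KO over control, Sox30 was at −5.13 in adult testis and 0.27 at day 7. Its day 7 value rests on 14 to 19 counts per library. The CREM coactivator Fhl5 was at −7.61 and 1.55, and the Zfp541 partner Kctd19 at −4.18 and 0.26, the latter from 0 counts in both day 7 controls and 1 in each KO, below the floor of 3 counts. Sox5 was at −4.55 and 0.98, and Hdac1 at −1.08 and 0.10. On the other side, Zbtb16 was at 2.68 and −0.51, Foxo1 at 2.94 and −0.45, Etv5 at 2.31 and −0.34, Prdm9 at 0.66 and −0.49, and Gtf2a1 at 0.84 and −0.18. Rnf20 was at 0.99 and −0.51, and Creb1, the somatic relative of Crem, at 1.75 and −0.21. On the fitted scale the adult differences of Prdm9 (−0.20) and Gtf2a1 (−0.01) were below 0, and that of Rnf20 was 0.12 (SE 0.27, adjusted p = 0.688, edgeR), against 0.99 on FPKM.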

How the results depend on the processing

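In adult testis 4 regulators were called lower, and the count was 7 with DESeq2 (which called 5653 of 15919 genes lower and 10256 in all), 8 at an adjusted p of 0.05 without a fold threshold, and 7 without labelled KO 1 under median-ratio or total-count scaling (5345 and 3772 genes lower), both added after seeing the data. Leaving out single libraries gave 2 to 7 regulators (2 without control 2, control 3 or KO 2 and 7 without KO 1) and 2695 to 10301 genes called in place of 7432. The lower threshold gave 12969 genes. With the replicate number as a block, 0 regulators and 0 genes were called. At an unadjusted p under 0.05 that fit had 8 of 10 regulators and 12563 of all 15919 genes, the latter in either direction. Same-numbered libraries deviated together by a correlation of 0.018 to 0.026 in adult testis and 0.037 at day 7, so the numbers were not taken to pair them, although every adult library correlated best with its own number. The share of lower genes among all called was 50.8% with TMM, 56.9% with median-ratio and 27.8% with total-count scaling. The cause of these changes was not tested. Median-ratio scaling, total-count scaling, both other filters and limma kept 4 or 5 regulators called. With the scalings 4186 and 2252 of all 15919 genes were called lower. It was 3704 of 19983 genes without a filter and 3451 of 14615 at a mean FPKM of at least 1. With limma it was 2468 and 3115 of 15919 at pseudocounts of 0.1 and 1.

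At day 7 no setting called a regulator, while genes called were 126 with DESeq2, 61 without KO 1 and 650 without KO 2, in place of 0. Values near 0 changed sign: Rfx2 was 0.0622 without control 2 and 0.0242 without KO 1, within −0.0836 to 0.0622 with a library left out. Tbpl1 was −0.0194 with total-count scaling, −0.0187 and −0.0176 with limma at pseudocounts of 0.1 and 1, −0.0154 without control 1 and −0.0020 without KO 1, within −0.0154 to 0.0556 with a library left out. With 1 library left in a group, that library was assumed to vary like the others. Depth limits Zfp541 and Sox30 at day 7, where no library held more than 19 counts.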

Other observations

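Other regulators of the partner list are named here after their values were seen. Dmrt1, which holds spermatogonia out of meiosis and is also present in Sertoli cells, was at FPKM 6.62, 6.18 and 6.07 in the adult controls and 0.57, 17.27 and 24.91 in the labelled KO, and at day 7 at 31.74 and 32.01 against 8.12 and 27.16. Meioc, needed for meiotic prophase, was at 23.26, 18.99 and 27.21 against 0.04, 5.05 and 8.46. Dmrtb1, which acts at the entry into meiosis, was at 618, 638 and 508 against 0.05, 26.57 and 29.79. Phf7, a chromatin reader of spermatids, was at 1535, 1622 and 1630 against 8.97, 77.00 and 88.82, and Chd5, a remodeller of spermatid chromatin, fell from 30.25, 29.58 and 37.18 to 0.22, 0.43 and 0.52 (log2 difference −6.96, SE 0.36, adjusted p = 3.22e-05, edgeR). KO 2 and KO 3 were above all controls for Dmrt1 and below them for the other 4 genes.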
